A study of Mus musculus with 25 samples.

Results

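The 9 genes described here encode the core of the inflammasome and of the lytic cell death it starts: the sensors Nlrp3, Nlrp1b, Nlrc4, Naip5 and Mefv, the adaptor Pycard, the inflammatory caspases Casp1 and Casp4, and the pore-forming protein Gsdmd. They were taken by symbol from the 24984 genes of the count table. The study asked how the dosage of an oncogenic Ras shapes liver tumour cells and their surroundings. RNA was sequenced from 9 cultures of BMEL cells, a clonally derived, untransformed line of hepatic progenitors from the embryonic liver of a C57BL/6 x C3H mouse, and from 16 sorted fractions of tumours that such cells had formed in 4 mice. The cultures comprised 3 with an empty vector (BMEL WT), 3 of RasLOW and 3 of RasHIGH cells. RasLOW and RasHIGH are populations that carry human H-Ras G12V on a bicistronic viral vector with a fluorescent protein and were sorted by its intensity, so that their Ras levels overlap and all 9 cultures share the same clonal origin. Tumours grew in athymic nude mice (Foxn1nu), which lack T cells but keep myeloid and NK cells. From each mouse, the tumour of the injected liver and a tumour of the peritoneal cavity were dissociated and separated by fluorescence into tumour cells and stromal cells, which gave 4 libraries for each of liver tumour, peritoneal tumour, liver stroma and peritoneal stroma. The age of the mice and the Ras population injected for these tumours are not given in the sources used here.

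Inflammasomes are cytosolic complexes best known from macrophages and other myeloid cells. A sensor that has met its trigger, such as flagellin for Naip5 and Nlrc4 or loss of potassium for Nlrp3, recruits caspase-1, mostly through the adaptor ASC, the product of Pycard. Caspase-1 matures interleukin-1 beta and interleukin-18 and, like caspase-11, the product of mouse Casp4, cuts gasdermin D, whose freed part opens pores in the plasma membrane. Epithelial cells often hold only a part of this machinery.

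Upstream sequences of some members are shown first, to set what precedes their start sites beside the levels of RNA. RefSeq promoter windows (GRCm38.p6), 11 in all, were found for 8 of the 9 members, and matches among them were counted per member. Within 250 bases upstream of the annotated starts, both strands were searched for TGANTCA, an AP-1 site, for an interferon response element (GAAA, any 2 bases, GAAA), for a form of the NF-kB site (GGGA, any base, TT, any base, CC) and for AGGAAGT, a sequence bound by Ets family factors such as PU.1. AGGAAGT was added after the sequences had been read. It was present in Nlrc4, Naip5, Pycard and Nlrp1b, 4 of the 8 members, and in 7.69% of all 32851 promoter windows. The NF-kB form was present only in Casp4 among the 8 members and in 0.98% of all windows. TGANTCA (6.75% of all windows) and the interferon response element (2.98%) were present in none of the 8, and no window held matches of 2 different motifs. A match is a description of the letters and not evidence of binding. Windows of 4 members follow, chosen among those with a match, with the motif in capitals.
Nlrc4 (chr17:74459109-74459358, minus strand): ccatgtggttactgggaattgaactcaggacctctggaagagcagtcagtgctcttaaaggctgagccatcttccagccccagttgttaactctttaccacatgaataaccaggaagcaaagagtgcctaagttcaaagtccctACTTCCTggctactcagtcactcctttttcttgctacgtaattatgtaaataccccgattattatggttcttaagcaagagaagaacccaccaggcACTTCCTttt
Naip5 (chr13:100247337-100247586, minus strand): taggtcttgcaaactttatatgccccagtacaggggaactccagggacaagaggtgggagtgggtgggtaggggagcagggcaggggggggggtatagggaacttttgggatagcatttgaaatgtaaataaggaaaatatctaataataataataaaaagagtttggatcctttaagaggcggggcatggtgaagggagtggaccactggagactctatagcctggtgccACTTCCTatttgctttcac
Pycard (chr7:127993868-127994117, minus strand): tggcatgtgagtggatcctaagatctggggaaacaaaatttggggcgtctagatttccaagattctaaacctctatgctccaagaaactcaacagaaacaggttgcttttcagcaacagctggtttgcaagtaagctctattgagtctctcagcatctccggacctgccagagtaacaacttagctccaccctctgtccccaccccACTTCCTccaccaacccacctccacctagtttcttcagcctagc
Casp4 (chr9:5308599-5308848, plus strand): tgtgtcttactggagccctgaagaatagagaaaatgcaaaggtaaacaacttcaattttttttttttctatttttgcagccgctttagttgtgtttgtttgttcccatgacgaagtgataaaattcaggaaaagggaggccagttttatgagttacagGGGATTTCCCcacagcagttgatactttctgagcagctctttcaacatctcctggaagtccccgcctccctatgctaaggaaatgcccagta
In Nlrc4 the capitals mark AGGAAGT, read on the other strand as ACTTCCT, beginning 106 and 10 bases before the start. In Naip5 and Pycard they mark the same letters, 19 and 44 bases before the start. In Casp4 they mark the NF-kB form, 92 bases before the start.

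Total counts per library ran from 20818989 to 51241336, and 3 counts in 1 library corresponded to between 0.0572 and 0.143 CPM, the counts per 1000000 of a library's total after TMM scaling over all libraries. All levels below are in CPM, with the SD over cultures or mice. The summed level of 7 hepatic progenitor markers was 7027 to 10931 CPM in the cultures and tumour cells and 1181 to 2580 in stroma. The keratins Krt8, Krt18 and Krt19 were among the 7. Epcam, also one of them, reached at most 0.83 CPM in a culture or tumour cell library. Spp1, another of the 7, did not share this pattern, with 15281 to 36854 reads in liver stroma and 17917 to 28815 in liver tumour cells. Mouse Hras did not follow the labels, with means of 79.9 in BMEL WT, 77.9 in RasLOW and 66.9 in RasHIGH, and it does not measure the human transgene. The stroma was rich in leukocyte RNA: 10 macrophage markers summed to 6239 to 7677 CPM in liver stroma and 4851 to 7759 in peritoneal stroma. Peritoneal tumour cells of mouse 1 stood apart with 292 CPM of these macrophage markers against 30.8 to 57.2 in the other 7 tumour cell libraries. Peritoneal stroma of mouse 1 stood apart with 4777 CPM of 8 neutrophil markers against 594 to 2326 in the other 7 stromal libraries. In these bulk samples, fewer cells of a type and less RNA per cell cannot be told apart.

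Across the 7 groups the members fell into 2 patterns. Nlrp3, Nlrp1b, Mefv, Pycard, Casp1 and Casp4 were at or near 0 in cultured cells, low in sorted tumour cells and high in stroma. Nlrc4, Naip5 and Gsdmd were present in every library, tumour cells included. Scaled per kilobase of exon, which is needed to compare genes, the liver stroma held Nlrp3 at 193 CPM per kb, Gsdmd at 49.2, Mefv at 30.1, Pycard at 17.3, Casp1 at 16.8, Naip5 at 10.4, Casp4 at 9.95, Nlrc4 at 7.10 and Nlrp1b at 2.95. RasHIGH cells held Gsdmd at 47.9 CPM per kb, Naip5 at 2.99 and Nlrc4 at 2.55, while Mefv was at 0.0689 and the other 5 were lower still.

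**Figure D1:**
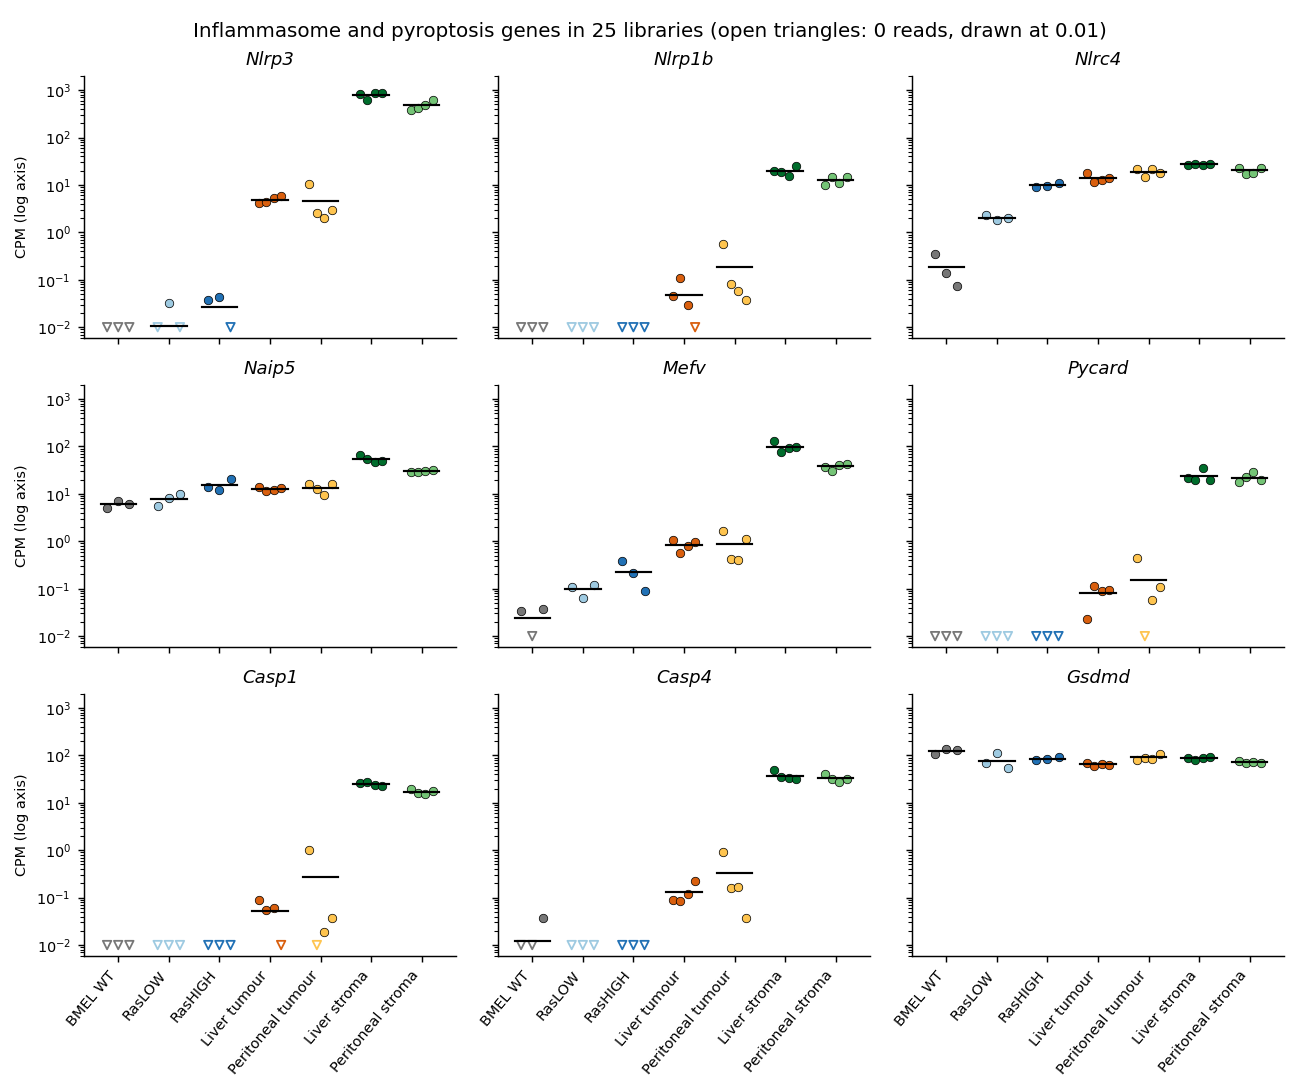
Level of each of the 9 members in CPM on a log axis, 1 point per library in 7 groups, with a bar at the group mean and open triangles for libraries with 0 reads. Nlrc4, Naip5 and Gsdmd had reads in all 25 libraries, while Nlrp1b, Pycard and Casp1 had none in the 9 cultures and exceeded 10 CPM in all 8 stromal libraries.

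Nlrp3, on mm9 chr11:59355070-59380458, encodes the sensor of potassium efflux and many other stresses. Its liver stroma levels were 817, 605, 848 and 867 CPM in mice 1 to 4, and its peritoneal stroma levels were 389, 417, 493 and 612. Liver tumour cells had 4.14, 4.43, 5.18 and 5.73, and peritoneal tumour cells had 10.5, 2.57, 2.02 and 2.98. Only 3 reads were counted over the 9 cultures, and BMEL WT had none. All stromal libraries thus lay above all tumour cell libraries, and the ranges of the liver and peritoneal groups overlapped, in stroma through the liver of mouse 2 and the peritoneum of mouse 4.

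Nlrp1b, on chr11:70966604-71044235, encodes a sensor of proteases such as anthrax lethal factor. It reached 19.8, 19.1, 15.6 and 24.5 CPM in liver stroma and 10.2, 14.5, 11.2 and 14.6 in peritoneal stroma, without overlap. Tumour cells had 0 to 0.112 in liver and 0.0368 to 0.560 in peritoneum, and the 9 cultures had no read, which allows up to 0.0124 CPM over all of them together. Its near-identical copy Nlrp1a had 17.6 ± 3.04 CPM in liver stroma (n = 4). Reads shared by the copies cannot be assigned with certainty, since the way of counting is not given.

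Nlrc4, on chr17:74825635-74858448, encodes the protein that joins ligand-bound Naip sensors to caspase-1. BMEL WT cultures had 0.346, 0.137 and 0.0739 CPM, from 2 to 10 reads. RasLOW cultures had 2.31, 1.82 and 1.98, and RasHIGH cultures had 9.03, 9.32 and 10.9. These 3 groups did not overlap. Levels in liver tumour cells were 18.3, 11.3, 12.9 and 13.7, and in peritoneal tumour cells 21.2, 14.5, 21.9 and 17.5. Liver stroma had 27.0, 28.2, 26.3 and 27.5, and peritoneal stroma had 22.9, 17.4, 17.8 and 22.8. Tumour cells lay above every culture, while peritoneal stroma and peritoneal tumour cells overlapped.

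Naip5, on chr13:100981694-101016278, encodes the receptor for flagellin that acts through Nlrc4. BMEL WT cultures had 5.01, 7.15 and 6.13 CPM, RasLOW cultures 5.50, 8.10 and 9.81, and RasHIGH cultures 13.9, 12.3 and 20.6. RasHIGH lay above both other groups, which overlapped each other. Tumour cells had 11.6 to 14.2 in liver and 9.47 to 16.3 in peritoneum, close to RasHIGH cultures. Liver stroma had 64.5, 54.5, 48.0 and 48.6, and peritoneal stroma had 29.6, 28.8, 30.3 and 32.3, so that both stromal groups were above all other libraries and did not overlap. The near-identical copies Naip1, Naip2 and Naip6 can exchange reads with Naip5, and the split between them is uncertain. Naip2, by comparison, had 30.1 ± 5.85 in BMEL WT and 51.1 ± 9.69 in RasHIGH (n = 3), and Naip1 had 1.87 ± 0.792 and 18.3 ± 5.71.

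Mefv, on chr16:3707215-3718124, encodes pyrin, the sensor that is mutated in familial Mediterranean fever. Liver stroma had 131, 77.3, 91.1 and 95.8 CPM and peritoneal stroma 37.0, 30.7, 40.8 and 42.7. The lowest liver value was above the highest peritoneal value. Tumour cells had 0.558 to 1.08 in liver and 0.400 to 1.62 in peritoneum. The cultures gave 2 reads over BMEL WT, 8 over RasLOW and 17 over RasHIGH, too few to pass the filter on low counts. With all 25 libraries in 1 fit, Mefv passed only through its reads in the sorted libraries, which also entered the estimate of spread. In that fit it was called higher in RasHIGH than in BMEL WT (log2 fold change 3.10, SE 1.01, adjusted p = 0.025, edgeR). The call rests on the same 17 and 2 reads and is not a test of the cultures alone. Without a filter, in the cultures alone, Mefv was not called (adjusted p = 0.0855).

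Pycard, on chr7:135135617-135137381, encodes the adaptor ASC. Liver stroma had 21.9, 20.1, 35.5 and 20.0 CPM and peritoneal stroma 17.6, 22.9, 28.3 and 19.3, overlapping widely. No read was counted in any of the 9 cultures. Tumour cells gave 11 reads over the 4 liver libraries and 20 over the 4 peritoneal libraries, of which 14 came from mouse 1.

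Casp1 and Casp4 are neighbours on chromosome 9, at chr9:5298517-5307265 and chr9:5308828-5336783. Casp1 had 26.5, 27.5, 23.8 and 23.1 CPM in liver stroma and 19.4, 16.3, 15.5 and 17.5 in peritoneal stroma, without overlap. Casp4 had 48.1, 35.4, 32.7 and 31.5 in liver stroma and 40.8, 31.6, 27.8 and 31.9 in peritoneal stroma, where the groups overlapped. In the cultures, no read of Casp1 and 1 read of Casp4 were counted. Casp1 gave 8 reads over the 4 liver tumour cell libraries and 35 over the peritoneal ones, 33 of them in mouse 1. Casp4 gave 18 and 46 reads, 30 of the latter in mouse 1.

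Gsdmd, on chr15:75692769-75697834, encodes the pore-forming gasdermin D and was the member with the smallest ratio of highest to lowest group mean. BMEL WT cultures had 108, 136 and 132 CPM, RasLOW cultures 69.4, 111 and 53.0, and RasHIGH cultures 78.6, 85.4 and 91.2. RasHIGH lay below BMEL WT, and RasLOW spanned both. Liver tumour cells had 70.3, 59.6, 64.9 and 63.6, and peritoneal tumour cells had 80.9, 88.1, 83.8 and 109. Liver stroma had 89.7, 81.7, 87.0 and 90.9, and peritoneal stroma had 74.9, 68.4, 72.1 and 69.8. The means ran from 64.6 to 125, and each neighbouring pair in the order of means overlapped.

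The order of group means differed between members. Liver stroma was the highest group and peritoneal stroma the next for all members except Gsdmd, for which BMEL WT was the highest. The 2 stromal groups overlapped for Nlrp3, Pycard and Casp4 and did not for Nlrp1b, Nlrc4, Naip5, Mefv, Casp1 and Gsdmd. Liver and peritoneal tumour cells overlapped for all members except Gsdmd. The share of all genes with such separate ranges is not given here. Of all genes, edgeR called 33.4% between the 2 stromal groups and 3.20% between liver and peritoneal tumour cells.

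The dosage of Ras was addressed in the cultures, where only Nlrc4, Naip5 and Gsdmd passed the filter on low counts and were tested by edgeR's quasi-likelihood test with p-values adjusted by Benjamini-Hochberg across every gene of the fit. In RasLOW cells Nlrc4 rose 10.4-fold over BMEL WT (log2 fold change 3.38, SE 0.56, adjusted p = 0.0196, n = 3 and 3, edgeR). It was the 1 member called of 3 tested, where 5.96% of all genes were called. Naip5 differed by 0.33 (SE 0.29, adjusted p = 0.584, edgeR) and Gsdmd by -0.71 (SE 0.27, adjusted p = 0.189, edgeR). In RasHIGH cells all 3 members tested were called, against 22.6% of all genes. Nlrc4 rose 49.7-fold (log2 fold change 5.64, SE 0.47, adjusted p = 0.000569, edgeR), Naip5 rose 2.49-fold (1.32, SE 0.26, adjusted p = 0.0117) and Gsdmd fell by 0.59 on the log2 scale (SE 0.14, adjusted p = 0.0216). The study's thresholds for cultures were a log2 fold change beyond 1.5 and a p under 0.01, taken here as unadjusted. By these, Nlrc4 alone was called in RasHIGH against BMEL WT, where 9.65% of all genes were. The study also removed genes of low RPKM, a step not applied here. Between the Ras populations, Nlrc4 was 4.81-fold higher in RasHIGH (log2 fold change 2.27, SE 0.25, adjusted p = 0.0493, edgeR), 1 of the 9 genes called among 11962, or 0.0752%. Naip5 was higher by 0.998 (SE 0.31, adjusted p = 0.318) and Gsdmd by 0.13 (SE 0.28, adjusted p = 0.925).

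The adjusted p of Nlrc4 between RasHIGH and RasLOW was 0.0702 to 0.282 when any of the 6 libraries was left out, while its log2 fold change stayed at 2.19 to 2.35. The call of Nlrc4 in RasLOW against BMEL WT ended without BMEL WT culture 2 or 3 or RasLOW culture 1 or 3 (adjusted p 0.0503 to 0.0934, log2 fold change 3.02 to 3.41), and that of Gsdmd in RasHIGH ended without BMEL WT culture 2 or 3 or RasHIGH culture 2 (adjusted p 0.0676 to 0.0951). Without BMEL WT culture 1, which held 10 of the 16 reads of Nlrc4 in BMEL WT, the log2 fold change of Nlrc4 was 4.18 in RasLOW and 6.43 in RasHIGH. BMEL WT cultures 1 and 2 were run in another lane than the remaining 7 cultures. BMEL WT culture 3, which shared the lane of the Ras cultures, had the lowest Nlrc4 level of all. With lane as a term, Nlrc4 kept its call in RasHIGH (log2 fold change 6.92, SE 0.78, adjusted p = 0.00884) and lost it in RasLOW (4.67, SE 0.98, adjusted p = 0.173), and Naip5 and Gsdmd lost theirs in RasHIGH (adjusted p 0.170 and 0.155).

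Macrophage RNA was nearly absent from the cultures in which Nlrc4 was high. Adgre1, Lyz2, C1qa, C1qb, C1qc and Fcgr1 had no read in RasHIGH cells, and the 10 macrophage markers summed to 8.48 to 10.6 CPM in BMEL WT, 6.71 to 7.70 in RasLOW and 9.15 to 13.5 in RasHIGH. The sum of 6 pan leukocyte markers was 3.11 to 4.58 in BMEL WT, 2.38 to 4.69 in RasLOW and 8.66 to 15.1 in RasHIGH, with 6.10 to 13.8 of the RasHIGH sum from Cd53 and with Ptprc at 0 to 0.179.

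**Figure D2:**
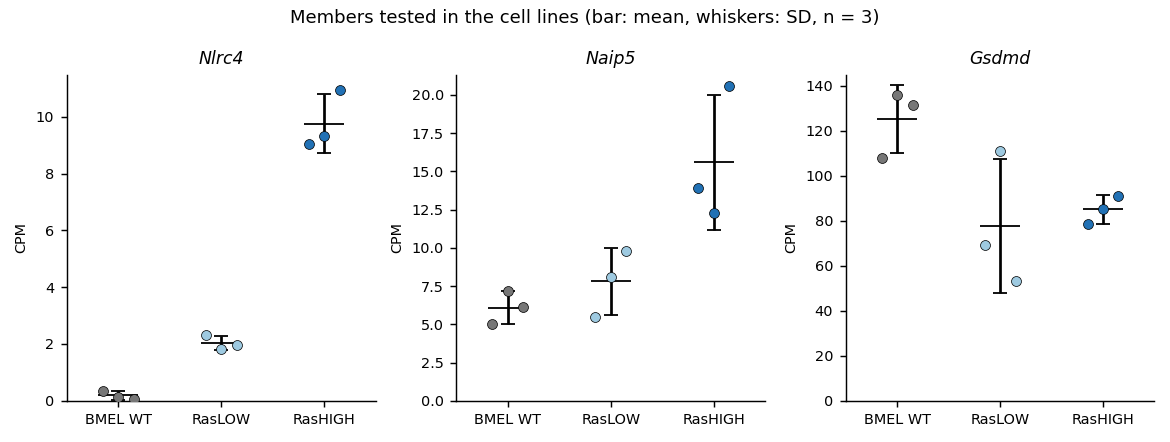
Nlrc4, Naip5 and Gsdmd in the 9 cultures, in CPM on linear axes from 0, with 1 point per culture and the mean and SD of 3. The Nlrc4 points of BMEL WT, RasLOW and RasHIGH lie in 3 separate ranges with means of 0.185, 2.04 and 9.77 CPM.

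The sorted fractions of the same tumours were compared next. In liver tumours all 9 members were higher in stroma than in tumour cells, where 77.8% of all genes were called in either direction and 39.4% as higher. Nlrp1b, Pycard, Casp1 and Casp4 passed the filter in this fit only through stroma. They had 7, 11, 8 and 18 reads over the 4 liver tumour cell libraries, so only a higher stromal level could be called for them. The log2 fold changes by edgeR were 8.74 for Casp1, 8.56 for Nlrp1b, 8.24 for Pycard, 8.16 for Casp4, 7.33 for Nlrp3 and 6.83 for Mefv, with SEs of 0.17 to 0.35. Those of the other 3 were 2.06 for Naip5 (SE 0.12), 0.94 for Nlrc4 (SE 0.14) and 0.43 for Gsdmd (SE 0.08), and the highest adjusted p of the 9 was 0.000359. In peritoneal tumours 7 members were higher in stroma, Gsdmd was lower and Nlrc4 was not called. Of all genes 76.6% were called there, 37.1% as higher and 39.5% as lower. Nlrp1b, Pycard, Casp1 and Casp4 again passed the filter only through stroma. Nlrc4 differed by 0.01 (SE 0.16, adjusted p = 0.968, edgeR) and Gsdmd fell by 0.44 (SE 0.10, adjusted p = 0.00312). The other members were higher by 7.17 (Pycard), 6.63 (Nlrp3), 6.58 (Casp4), 6.04 (Nlrp1b), 5.97 (Casp1), 5.36 (Mefv) and 1.06 (Naip5), with adjusted p of at most 0.00049. When the tumour cells of mouse 1 were left out, 8.61, 7.57, 7.87, 7.61, 9.65 and 5.95 were found for Pycard, Nlrp3, Casp4, Nlrp1b, Casp1 and Mefv.

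Within each tumour, the level in tumour cells was set against that in the stroma of the same tumour. The 6 members at or near 0 in the cultures had tumour cell levels at low percentages of the stromal ones. In liver tumours the median over 4 mice was 0.636% for Nlrp3, 0.210% for Nlrp1b, 0.856% for Mefv, 0.366% for Pycard, 0.227% for Casp1 and 0.302% for Casp4. The 6 pan leukocyte markers together stood at 1.67 to 2.25% in the same tumours, above those medians, and Ptprc, one of the 6 and the gene of the leukocyte antigen CD45, at 0.178 to 0.256%. The summed macrophage markers stood at 0.525 to 0.860% and the neutrophil markers at 0.658 to 0.952%. All of these sums include genes with reads in the cultures. The neutrophil markers had means of 18.2 CPM in BMEL WT, 22.1 in RasLOW, 23.7 in RasHIGH and 14.2 in liver tumour cells. Lyz2 and Adgre1, without a read in RasHIGH cultures, stood at 0.221 to 0.468% and 0.283 to 0.451% in liver tumours. Nlrp3 stood at 0.507 to 0.733% there and Mefv at 0.722 to 0.997%. In peritoneal tumour cells of mouse 1 the 6 members stood higher, at 2.28 to 5.48%. So did the macrophage markers, at 3.76%, and the fibroblast markers, at 2.69%. The part of stromal RNA in these low values was not tested. Nlrc4 in tumour cells stood at 40.0 to 67.8% of stroma in liver and 76.7 to 123% in peritoneum. For Naip5 the values were 21.3 to 27.8% and 31.2 to 54.2%, and for Gsdmd 70.0 to 78.4% and 108 to 156%. The hepatic progenitor markers summed to 1901 to 2580 CPM in liver stroma and 1181 to 1667 in peritoneal stroma. The part of tumour cell RNA in the stromal levels was not tested.

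**Figure D3:**
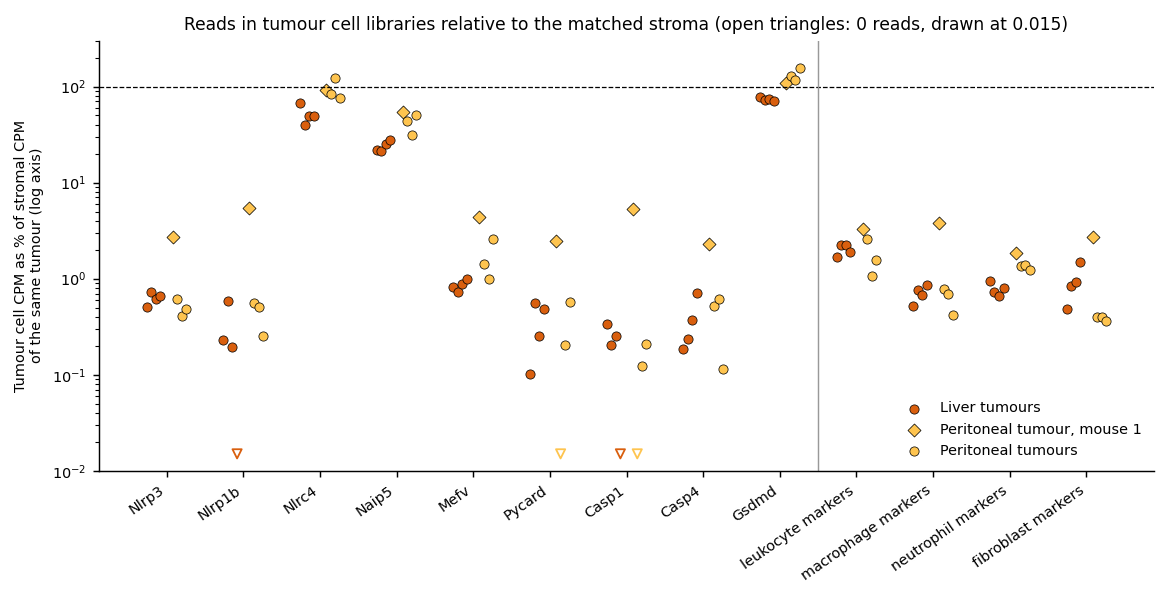
Tumour cell level as a percentage of the stromal level of the same tumour, on a log axis, 1 point per tumour for the 9 members and for 4 summed marker lists, with a dashed line at 100%, diamonds for mouse 1 in the peritoneum and open triangles for 0 reads. Nlrc4, Naip5 and Gsdmd stand at 21.3 to 156%, while the other 6 members and the marker lists lie at or under 5.48%.

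The site of growth was addressed in stroma by comparing the liver and peritoneal tumours of the 4 mice. Of 9 members, 7 were higher in liver stroma and none was lower, where 33.4% of all genes were called and 14.9% were called as higher in liver. By the study's thresholds Mefv alone was called, against 14.3% of all genes. Mefv differed the most (log2 fold change 1.34, SE 0.16, adjusted p = 0.000215, n = 4 and 4, edgeR), followed by Naip5 (0.79, SE 0.11, adjusted p = 4e-04) and Nlrp3 (0.67, SE 0.16, adjusted p = 0.0105). Nlrp1b rose by 0.60 (adjusted p = 0.0212), Casp1 by 0.51 (0.00459), Nlrc4 by 0.39 (0.0219) and Gsdmd by 0.25 (0.0164). Pycard differed by 0.10 (SE 0.21, adjusted p = 0.75) and Casp4 by 0.12 (SE 0.16, adjusted p = 0.602). The 5 sensors, Casp1 and Gsdmd were thus called, and the adaptor and Casp4 were not. Leaving out 1 library ended 1 or more of the calls of Nlrp1b, Nlrc4 and Gsdmd for 5 of the 8 libraries, liver stroma of mouse 4 and each peritoneal stroma, with adjusted p of 0.0512 to 0.0659 where a call ended. All 3 calls ended without liver stroma of mouse 4. With all 25 libraries in 1 fit, Mefv and Naip5 kept their calls and the other 5 lost theirs (adjusted p 0.104 to 0.548).

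Several leukocyte lists moved in the same direction. The 6 pan leukocyte markers summed to 4012 to 4916 CPM in liver stroma and 2667 to 3204 in peritoneal stroma. Dendritic cell markers summed to 712 to 958 in liver and 451 to 599 in peritoneum, Kupffer cell markers to 232 to 607 and 6.27 to 36.9, and NK cell markers to 31.1 to 53.4 and 9.29 to 16.2. Neutrophil markers were at 1539 to 2326 in liver stroma and at 594 to 637 in peritoneal stroma of mice 2 to 4, with 4777 in mouse 1. The part of these cells in the site differences of the members was not tested beyond the marker scalings given next. The monocyte markers overlapped between the sites, as did the 10 macrophage markers, and the 7 fibroblast markers were at 4140 to 8416 in liver and 53992 to 81956 in peritoneum. Scaling the libraries to the pan leukocyte markers moved the median log2 fold change of all 14755 genes from 0.02 to -0.60 (302 called higher and 9931 lower, against 2202 and 2723 by TMM) and left Mefv as the 1 member higher in liver, with a log2 fold change of 0.73 (SE 0.14). On that scale Pycard (-0.53), Casp4 (-0.49) and Gsdmd (-0.37) were lower in liver and called, Nlrp1b (-0.01), Nlrc4 (-0.21) and Casp1 (-0.09) changed sign without a call, and 0.05 remained for Nlrp3 and 0.18 for Naip5. Scaling to the macrophage markers moved the median to -0.02 and kept every sign, with 3 members called, Mefv (1.32), Naip5 (0.75) and Nlrp3 (0.63).

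**Figure D4:**
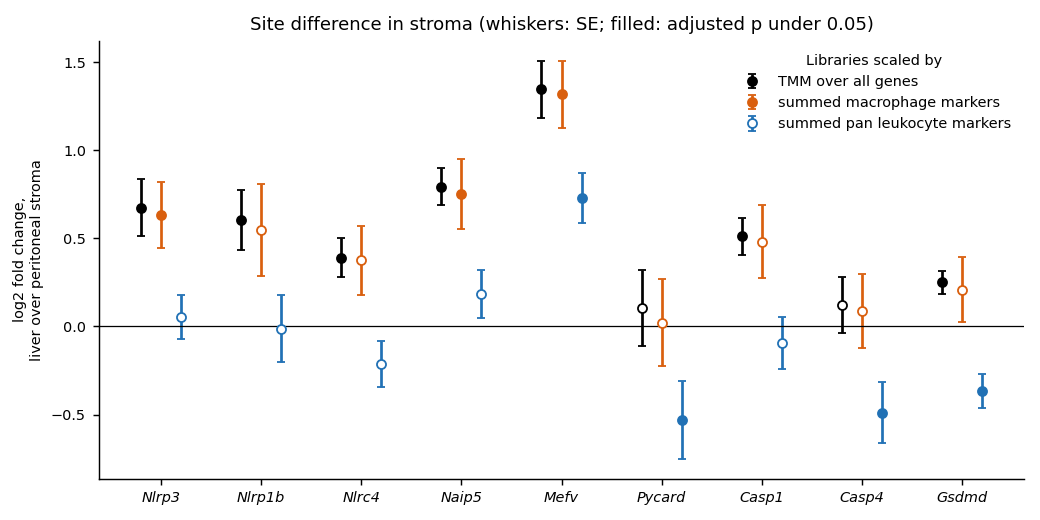
Log2 fold change of liver over peritoneal stroma for the 9 members (points, whiskers SE) with libraries scaled by TMM, by summed macrophage markers or by summed pan leukocyte markers, filled where the adjusted p by edgeR was under 0.05. Mefv is above 0 and filled on all 3 scales, and Pycard, Casp4 and Gsdmd are below 0 and filled on the leukocyte scale.

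In tumour cells Gsdmd was lower in liver than in peritoneal tumour cells (log2 fold change -0.48, SE 0.10, adjusted p = 0.033, n = 4 and 4, edgeR) and was the 1 member called of 5 tested, where 3.20% of all genes were called. Its change was within the study's log2 threshold of 1 for sorted cells, which 3.52% of all genes passed together with an unadjusted p under 0.05. The mean was 64.6 ± 4.39 CPM in liver and 90.3 ± 12.5 in peritoneal tumour cells (SD, n = 4), and the peritoneal value was higher in 4 of 4 mice. With the mouse as a block, the adjusted p of Gsdmd was 0.0854, and the call ended without liver tumour cells of mouse 2, 3 or 4 or peritoneal tumour cells of mouse 2 or 3 (adjusted p 0.0509 to 0.12). Nlrc4 differed by -0.42 (SE 0.17, adjusted p = 0.216), Naip5 by -0.08, Mefv by -0.05 and Nlrp3 by 0.10, none of them called. Without the peritoneal tumour cells of mouse 1, which held the most macrophage markers, Nlrp3 was higher in liver tumour cells by 0.96 (adjusted p = 0.0238). Relative to the matched stroma, Nlrp3 stood at 0.507 to 0.733% in liver and 0.410 to 0.615% in peritoneum of mice 2 to 4. In the same libraries pan leukocyte markers summed to 79.2 to 111 and 30.8 to 68.6 CPM, and macrophage markers to 37.9 to 57.2 and 30.8 to 47.4. The part of stromal RNA in this difference was not tested.

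Whether the site difference itself differed between stroma and tumour cells was tested as an interaction over the 16 sorted libraries. It was called for 3 of 9 members, where 14.3% of all genes were called. The site difference in stroma exceeded that in tumour cells by 0.81 for Gsdmd (SE 0.12, adjusted p = 0.000435, edgeR), by 0.94 for Naip5 (SE 0.21, adjusted p = 0.00638) and by 0.89 for Nlrc4 (SE 0.22, adjusted p = 0.0144). The call of Nlrc4 ended without liver tumour cells of mouse 3 or peritoneal stroma of mouse 2 or 3 (adjusted p 0.0507 to 0.058), and with all 25 libraries in 1 fit (0.85, adjusted p = 0.0562). Gsdmd and Nlrc4 were higher in liver stroma than in peritoneal stroma in 4 of 4 mice and lower in liver than in peritoneal tumour cells in 4 of 4 mice. For Mefv the difference was 1.399 (SE 0.47, adjusted p = 0.0586), and 1.36 (adjusted p = 0.0236) with the mouse as a block.

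**Figure D5:**
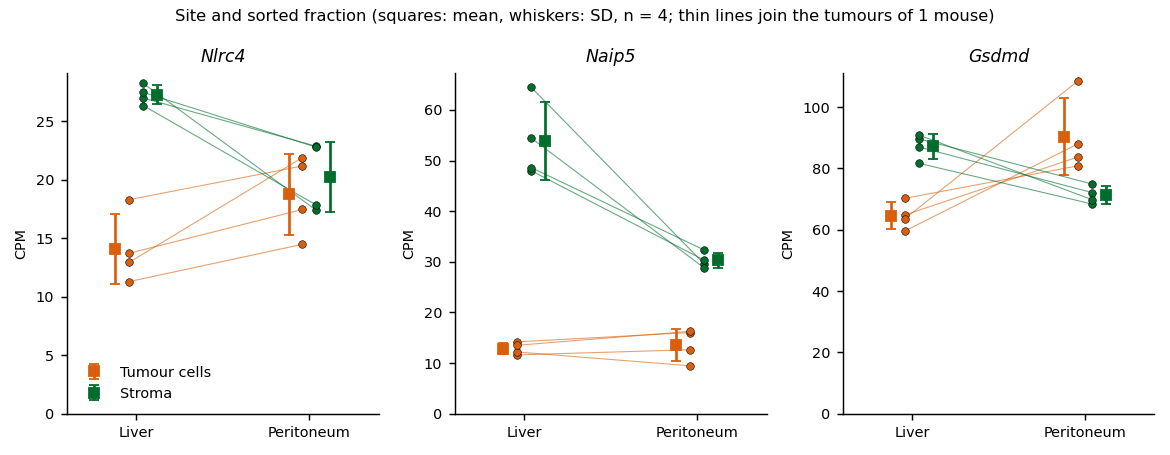
Nlrc4, Naip5 and Gsdmd in CPM by site in tumour cells and stroma, with 1 point per library, thin lines joining the 2 tumours of a mouse, and squares and whiskers for mean and SD of 4. The Gsdmd lines of stroma fall from liver (mean 87.3) to peritoneum (71.3) and those of tumour cells climb from 64.6 to 90.3.

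The other genes of the pathway were described by a list of 49 further sensors, licensing factors, executioners and cytokines. In RasHIGH against BMEL WT cells, 9 of 31 tested were higher and 4 were lower, where 10.9% of all genes were higher and 11.7% lower. The highest were the interleukin-1 antagonist Il1rn (log2 fold change 5.54, SE 1.27), the protease inhibitor Serpinb1a (5.02, SE 0.32) and the DNA sensor Aim2 (3.95, SE 0.24), and the lower genes included the cytokine Il18 (-6.34, SE 0.85) and the receptor subunit Il1rap (-3.02, SE 0.39), by edgeR with adjusted p of at most 0.021. The BMEL WT level of Il1rn rested on 1 culture, with 21.9 CPM in culture 1 against 0.992 and 0.85 in cultures 2 and 3, and RasHIGH cultures had 329 to 460. In RasLOW against BMEL WT 2 of 30 were higher, Serpinb1a (3.31) and Aim2 (1.78), and 1 was lower, against 1.92% and 4.05% of all genes. Between RasHIGH and RasLOW, Aim2 differed by 2.18 (adjusted p = 0.0741). Il1b and Il1a, the cytokine genes downstream of the inflammasome, were at 0 to 0.137 and 0 to 0.0346 CPM in the cultures, and Gsdme, which encodes another gasdermin, was not called in any of the 8 comparisons.

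In liver against peritoneal stroma, 25 of 48 tested pathway genes were higher and 3 were lower, where 14.9% of all genes were higher and 18.5% lower. The sensor gene Nlrp6 (log2 fold change 5.08, SE 0.68), Naip1 (1.26) and the decoy receptor Il1r2 (1.23) were the highest, and Serpinb1a (-1.22), Il1r1 (-1.21) and P2rx7 (-0.36), which encodes the ATP-gated channel upstream of Nlrp3, were the lower genes. Nlrp6 was near the limit of counting, with a mean of 0.843 CPM in liver stroma and 0.0215 in peritoneal stroma, the latter from 2 reads. Il1b was at 4156 ± 700 CPM in liver and 2466 ± 408 in peritoneal stroma (log2 fold change 0.71, SE 0.16, adjusted p = 0.00654, edgeR). In tumour cells, 1 of 43 was higher in liver, Mlkl (0.47), an executioner of necroptosis, and 1 was lower, the GTPase gene Irgm1 (-0.63), against 1.33% and 1.87% of all genes. Stroma exceeded tumour cells for 40 of 48 pathway genes in liver and 35 of 47 in peritoneum, with 4 and 6 lower. Of all genes, 39.4% were higher and 38.4% lower in liver, and 37.1% and 39.5% in peritoneum.

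The genes most like each member over the 25 libraries, by Pearson correlation of log2(CPM + 1), are given with no test. Nlrp3 was closest to Il1b (r = 0.998), Casp1 to Arhgap25 (0.999), Casp4 to Cd300ld (0.999), Nlrp1b to C130050O18Rik (0.999), Pycard to Xylt1 (0.997) and Mefv to Malt1 (0.997). Nlrc4 was closest to Pilrb2 (0.970), Trim14 (0.961) and Mrc1 (0.953), and Naip5 reached 0.951 with Slfn2. For Gsdmd no gene exceeded the 0.782 of Aldh1a1. The points include 8 stromal and 17 other libraries, and correlations within either set were not computed.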

How the data were processed

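Sequencing libraries of 9 cultures and 16 sorted tumour fractions were analysed, all columns of 1 table of raw counts per gene that the authors deposited. Per the paper's methods, mRNA libraries (NuGEN Universal Plus) were read on an Illumina HiSeq and aligned to mm9 with TopHat2. The submitters' processing notes name FastQC, Bowtie 0.12.2 and the builds mm8 and mm10, so the build of the counts is uncertain. The counting program, its strand setting and the annotation are not given in the sources used here. The deposited counts entered edgeR 4.0.16 under R 4.3.3 (filterByExpr with a minimum count of 10, TMM, quasi-likelihood F-test, Benjamini-Hochberg adjustment over all genes tested, call at adjusted p under 0.05). Each fit held only the groups compared, with no covariate. A member failing the filter was not tested. The limit of 3 counts covers counting error only. SEs were derived from the quasi-likelihood F-test, which includes the spread between libraries.

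Levels are CPM with TMM factors (0.872 to 1.13) over 25 libraries. No 2 libraries were identical, and replicates correlated at 0.974 to 0.996. Where nothing names separate cultures, p-values measure the spread between these samples only. Mouse numbers mark the same animal (mean correlation of deviations -0.04 between sites in tumour cells and 0.17 in stroma, 0.22 and 0.19 between fractions). Positions are those of GENCODE M1 on mm9, where no annotated gene overlapped a member. Alternatives were DESeq2 1.42.0, RLE, total counts, no filter, all libraries in 1 fit, a block for the replicate number (the mouse in sorted cells), lane, the study's thresholds, 2 marker scalings and leaving out each library. The steps were tested on simulated counts.

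All 9 members are named. Other pathway genes are named only where called with the highest or lowest log2 fold change, up to 3 each way, and always for Aim2, Il1a, Il1b, Il18 and Gsdme, and the 3 most similar genes of each member were listed. Some genes that this rule selects are not reported here. The members and lists were chosen with earlier results of these data known. Markers of leukocytes, macrophages, neutrophils, fibroblasts and progenitors are given as summed CPM.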

Additional observations from a re-analysis of the deposited data

Results flagged for a closer look

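Within groups of 4 libraries, a library far from the others (its gap to the nearest, over the whole range, above Dixon's critical value) was sought in 36 combinations of member and group, of which chance flags about 1 in 20. It was found in 5. Of these, 4 were peritoneal tumour cells of mouse 1, with 10.5 CPM of Nlrp3, 0.560 of Nlrp1b, 1.03 of Casp1 and 0.933 of Casp4, each above the other 3 mice. The same library held 292 CPM of the 10 macrophage markers against 30.8 to 57.2 in the other tumour cell libraries. It also held 12.2 CPM of Ptprc against 1.05 to 1.19 in the other peritoneal ones. Fibroblast markers summed to 1455 CPM in it against 211 to 323 in those, and neutrophil markers to 87.7 against 7.39 to 8.90. The part of stromal RNA in the 4 values was not tested. The remaining library was liver stroma of mouse 3, with 35.5 CPM of Pycard against 20.0 to 21.9.

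The difference between liver and peritoneum differed between stroma and tumour cells for Nlrc4 by 0.89, for Naip5 by 0.94 and for Gsdmd by 0.81 on the log2 scale, by the interaction term of edgeR's quasi-likelihood test. Stroma was higher in liver for all 3, and the values of each library are those given with the comparison of sites.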

How the results depend on the processing

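Leaving out 1 library at a time gave 0 to 2 members called in RasLOW against BMEL WT, 2 to 3 in RasHIGH against BMEL WT, 0 in RasHIGH against RasLOW, 0 to 2 in liver against peritoneal tumour cells, 4 to 7 in stroma by site, 9 and 8 in stroma against tumour cells of liver and peritoneum, and 2 to 4 in the interaction. With all 25 libraries in 1 fit, 2 members were called for RasLOW against BMEL WT, for RasHIGH against RasLOW and for stroma by site, and 0 in tumour cells by site. Mefv, which failed the filter in the cultures alone and passed here through the sorted libraries, was called in RasHIGH against BMEL WT. With lane as a term, 0 were called in RasLOW, 1 in RasHIGH against BMEL WT and 0 in tumour cells by site, and lane could not be fitted between the Ras populations, which shared 1 lane. The study's thresholds left 1 in RasHIGH against BMEL WT, 0 in tumour cells by site and 1 in stroma by site. Total counts as scaling left 0 in RasHIGH against RasLOW. In stroma by site the leukocyte scaling left 4 members, where 302 of all 14755 genes were higher and 9931 lower. The macrophage scaling left 3, where 959 were higher and 1887 lower. DESeq2 gave 5 members in the interaction and called 2546 genes there, against 2191 by edgeR. The share of all genes is not given here for total counts, the single fit of 25 libraries or leaving out a library. The cause of these shifts was not tested.

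Replicate numbers of the cultures name no shared batch (mean correlation of deviations -0.13, 0.06 and -0.30). With the number as a block, 0 members were called in RasHIGH against RasLOW (Nlrc4 adjusted p = 0.197), and with the mouse as a block 0 in tumour cells by site. The block changed no other call of a member than these and Mefv in the interaction. Over all genes, the counts called without a block, with it and by DESeq2 were 734, 295 and 1622 in RasLOW against BMEL WT, 9, 0 and 419 between RasHIGH and RasLOW, and 419, 102 and 1146 in tumour cells by site. With lane as a term, 26, 545 and 195 genes were called in RasLOW against BMEL WT, RasHIGH against BMEL WT and tumour cells by site.

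Signs turned for values that were not called, and on the leukocyte scale. In tumour cells by site, Mefv was at 0.12 with the block, and leaving out 1 library gave -0.30 to 0.45 for Mefv, -0.15 to 0.96 for Nlrp3 and -0.218 to 0.0232 for Naip5. In stroma by site, the leukocyte scale gave -0.0134 for Nlrp1b, -0.21 for Nlrc4, -0.53 for Pycard (adjusted p = 0.0493), -0.0927 for Casp1, -0.49 for Casp4 (0.0262) and -0.37 for Gsdmd (0.00571), and leaving out 1 library gave -0.13 to 0.236 for Pycard and -0.0302 to 0.219 for Casp4. Nlrc4 in stroma against tumour cells of the peritoneum was at -0.10 with total counts and -0.00150 with lane, and at -0.0573 to 0.156 without 1 library. Gsdmd in RasHIGH against RasLOW was at -0.0847 to 0.488 without 1 library. In the interaction, -0.31 for Nlrp3, -0.44 for Pycard and -0.98 for Casp1, all without peritoneal tumour cells of mouse 1, were the lowest values, and 0.896, 1.43 and 3.20 the highest. The filter on low counts left 6 members untested in the cultures and 4 in tumour cells by site. Without it, the lowest adjusted p among them was 0.0855 (Mefv, RasHIGH against BMEL WT).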

Other observations

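Aim2, the cytosolic DNA sensor that also works through Pycard and Casp1, was, like Nlrc4 and Naip5, present in every group. It stood at 3.11 ± 0.877 CPM in BMEL WT, 10.9 ± 3.78 in RasLOW and 49.4 ± 3.11 in RasHIGH cells (SD, n = 3). Tumour cells had 58.0 ± 6.67 in liver and 64.9 ± 15.7 in peritoneum, and stroma had 51.3 ± 6.86 and 30.4 ± 3.55 (SD, n = 4). Relative to the stroma of the same tumour, Aim2 in tumour cells was at 99.4 to 148% in liver and at 189 to 263% in peritoneum. It differed by -0.19 between stroma and tumour cells in liver (adjusted p = 0.165, edgeR) and fell by 1.19 on the log2 scale in peritoneal stroma against tumour cells (adjusted p = 0.000226).

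Il18, a substrate of caspase-1, was highest in stroma, at 8.80 ± 2.39 CPM in liver and 7.32 ± 1.89 in peritoneum (SD, n = 4), and in culture fell from 1.47 ± 0.692 in BMEL WT to 0.0143 in RasHIGH cells (n = 3, log2 fold change -6.34, adjusted p = 0.00291, edgeR). Gsdme was higher in cultures, at 13.7 to 19.0 CPM by group, than in the sorted fractions, at 2.16 to 4.09, a difference that was not tested.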
